A study of Homo sapiens with 12 samples.

Results

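The 8 miRNA genes described here are MIR224, MIR1270, MIR130A, MIR33A, MIR505, MIR1269A, MIR3929 and MIR622. They were selected on their measured counts, as rows with few or no counts in the melanoma line A375 and counts in the resistant line A375-BIR. They are 8 of 1881 miRNA rows, of which 977 had a value above 0 in some library. The difference between the lines chose them and is therefore given as a description, without a test.

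Small-RNAseq was performed on A375, a human melanoma cell line sensitive to the BRAF inhibitor dabrafenib, and on A375-BIR, a line selected from it by growth in increasing concentrations of dabrafenib. Whether A375-BIR is a single clone was not stated in the sources used here. Each line was kept for 48 h in 200 nM dabrafenib or in the vehicle, 0.1% DMSO, and each of these 4 groups has 3 libraries, 12 in all. The labels number them as biological replicates, and p-values measure the spread between the replicates within a group. Between the lines, they compare a single resistant line with the line it came from.

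A miRNA is cut from a hairpin precursor, and its seed, the bases near its 5′ end, pairs with target mRNAs and lowers their translation and stability. Many miRNA genes lie inside a longer host gene and can be transcribed with it, while others have a transcript of their own. In melanoma, BRAF inhibitors block signalling from mutated BRAF to the MAP kinase pathway, and cells that grow in their presence are used to study acquired resistance.

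Mature sequences from RefSeq (GRCh38.p14) were found for 7 of the 8 genes. They are shown 5′ to 3′ with the seed, bases 2 to 8, in capitals, because the seed defines which other miRNAs are relatives. The 9 arms had 9 different seeds, so no listed arm of one gene shared its seed with that of another.
hsa-miR-224-5p: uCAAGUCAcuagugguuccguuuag
hsa-miR-224-3p: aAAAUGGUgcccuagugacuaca
hsa-miR-1270: cUGGAGAUauggaagagcugugu
hsa-miR-130a-5p: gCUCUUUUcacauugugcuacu
hsa-miR-33a-5p: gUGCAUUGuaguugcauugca
hsa-miR-33a-3p: cAAUGUUUccacagugcaucac
hsa-miR-1269a: cUGGACUGagccgugcuacugg
hsa-miR-3929: gAGGCUGAugugaguagaccacu
hsa-miR-622: aCAGUCUGcugagguuggagc
The entries of miR-130a-3p and MIR505 are named only. The counts are per precursor, and the 5p and 3p arms are not told apart in them.

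Of the other human miRNAs in the same RefSeq table, 4 share a seed with a listed arm. They are shown because the counts of such relatives are compared with those of the 8 genes further on.
hsa-miR-620: aUGGAGAUagauauagaaau
hsa-miR-33b-5p: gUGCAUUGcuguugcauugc
hsa-miR-1269b: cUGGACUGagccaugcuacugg
hsa-miR-4478: gAGGCUGAgcugaggag
Counted from 1 at the 5′ end, miR-1269a and miR-1269b differ by G13A alone.

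The 8 genes lie on 7 chromosomes in hg38 (GENCODE v44). MIR224 (chrX:151958578-151958658, minus strand) lies in GABRE, a subunit gene of the GABA-A receptor, and overlaps an exon in 2 of its 12 transcripts. MIR505 lies at chrX:139924148-139924231 on the minus strand. MIR33A (chr22:41900944-41901012, plus strand) lies in an intron of SREBF2, which encodes a transcription factor of cholesterol synthesis, and miR-33 is known to act on the cholesterol exporter ABCA1.
MIR130A (chr11:57641198-57641286, plus strand) lies in an intron of its non-coding host MIR130AHG. MIR1270 (chr19:20399272-20399354, minus strand) lies in introns of the pseudogene ZNF826P and of the lncRNA ENSG00000291130. MIR622 (chr13:90231182-90231277, plus strand) lies within an exon of the processed pseudogene KRT18P27, a copy of the keratin gene KRT18. MIR1269A (chr4:66276824-66276928, plus strand) has only an lncRNA on the opposite strand, ENSG00000287383, over it, and MIR3929 (chr18:35934088-35934142, minus strand) overlaps no other annotated gene. The files hold miRNA rows, so the levels of the host genes were not analysed here.

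MIR3929 and MIR622 resemble many other places in the genome. Of the 38 runs of 18 bases in the MIR3929 precursor, at least 1 recurs at 447942 other loci in hg38 and in the sense transcripts of 4808 other genes. The MIR622 precursor shares runs with 75 other loci and 62 other genes, and 44 of its 79 runs lie in KRT18. The other 6 precursors share runs with 1 to 152 other loci and with at most 3 other genes each. RSEM, the authors' counting tool, divides a read among the rows that could have given it, and MIR622 and MIR3929 had fractional values in 8 and 7 of the 12 libraries. The mature sequences themselves share runs with few places, 3 other loci and 0 other genes for miR-3929 and 2 other loci and 1 other gene for miR-622. How much of the counts of either gene comes from reads of other places was not tested.

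Total expected counts were 77264, 121802 and 86898 in the A375 DMSO libraries and 47507, 51532 and 36955 in A375 in dabrafenib. They were 106427, 120625 and 122792 in A375-BIR in DMSO and 35070, 59899 and 47607 in A375-BIR in dabrafenib. The dabrafenib libraries were thus the shallower ones in both lines. A library without a count for a miRNA still allows up to 3 counts, which is 20.6 CPM (counts scaled to the library total times its TMM factor) in the library with the largest scaled total and 98.8 CPM in that with the smallest. These limits, and the counting intervals below, cover counting error only.

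A375-BIR DMSO replicate 3 stood apart from its group. Its chi-square per degree of freedom was 29.4 against replicate 1 and 32.1 against replicate 2, while replicates 1 and 2 differed by 2.50. It also held the highest count of MIR224, MIR1270, MIR130A, MIR33A, MIR3929 and MIR622, and results that rest on it are given with and without it.

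The label of the line was checked against marker miRNAs. Of 20 miRNAs of melanocytes and melanoma, 14 had a value above 0, and their summed count was between 1134 and 8657 per library, with 340 to 6388 counts of MIR221. Some of the 14 differed between the lines, in both directions, so their sum does not describe each of them. MIR508 had 0 to 1 counts per A375-BIR library and 4 to 16 per A375 library. MIR509-1 had 1.33 to 2 counts against 21.5 to 52.2. MIR204 had 9 to 24 counts per A375-BIR library and 117 to 302 per A375 library, MIR146A had 57 to 206 against 453 to 2925, and MIR222 had 474 to 2308 against 89 to 579. MIR211, a melanocyte miRNA, had 0 to 9 counts per library, and MIR507, MIR510, MIR514A1, MIR514A2, MIR514A3 and MIR514B were at 0 throughout. Markers of other cell types were low. The 5 blood miRNAs summed to between 1 and 17.5 counts with MIR451A at 0, the 7 epithelial ones to between 1 and 13 with MIR429 and MIR203A at 0, and the 5 muscle ones to at most 6. Liver MIR122 was at 0 and endothelial MIR126 had 0 to 9 counts.

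MIR224 and MIR1270 were the 2 genes without a count in any A375 library. MIR224 had 2, 12 and 20 counts in A375-BIR in DMSO and 4, 8 and 4 in dabrafenib. MIR1270 had 6, 7 and 19 counts in DMSO and 1, 7 and 3 in dabrafenib. Every A375-BIR library held both, and no A375 library held either.
MIR130A, of the miR-130 family, had 11, 12 and 22 counts in A375-BIR in DMSO and 4.67, 5 and 1 in dabrafenib, against 1 count in A375 DMSO replicate 3 and 0 in the other 5 A375 libraries. MIR33A had 2.25, 9 and 12 counts in A375-BIR in DMSO and 1, 9 and 1 in dabrafenib, against 4 counts in A375 DMSO replicate 1 and 0 in the other 5. MIR33A was the gene whose lines overlapped, since that A375 library, at 47.5 CPM, lay above A375-BIR libraries as low as 20.1 CPM.
MIR505 had 14, 19 and 6 counts in A375-BIR in DMSO and 3, 8 and 8.5 in dabrafenib. In A375 it had 3, 2 and 0 counts in DMSO and 0 in each dabrafenib library. Its lines came close to each other, with 35.6 CPM in the highest A375 library and 41.1 CPM in the lowest of A375-BIR.
MIR1269A had the highest mean CPM of the 8 in A375-BIR, with 57.5, 57.5 and 55 counts in DMSO and 18, 32 and 18 in dabrafenib. In A375 it had 1, 2 and 3 counts in DMSO and 1, 2 and 0 in dabrafenib. Its A375-BIR libraries lay between 361 and 516 CPM, the highest A375 library at 55.9 CPM, and it was the gene of the 8 with counts in A375 in dabrafenib.
MIR3929 had 13.5, 24.5 and 90.3 counts in A375-BIR in DMSO and 5.09, 38.5 and 10 in dabrafenib, against 3.5, 0 and 1.5 in A375 in DMSO and 0 in dabrafenib. MIR622 had 10.6, 14.8 and 47.2 counts in A375-BIR in DMSO and 18.5, 18.9 and 1.9 in dabrafenib, against 2.06, 3.54 and 1 in A375 in DMSO and 0 in dabrafenib. In both, A375-BIR DMSO replicate 3 was far above the other DMSO libraries of its line.

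**Figure D1:**
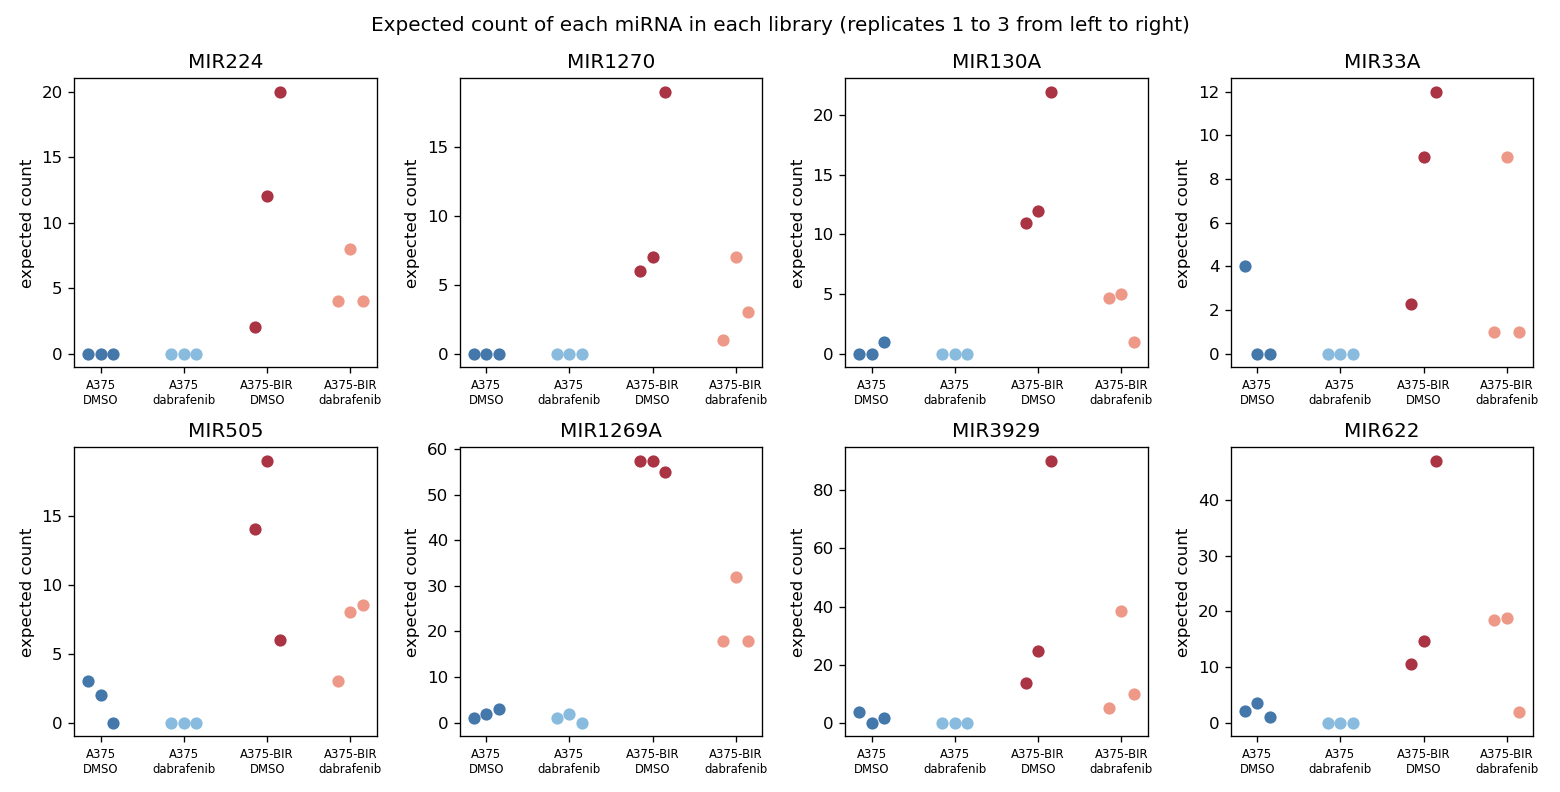
Expected count (y axis, not normalized) of each of the 8 miRNA genes in each library, by line and treatment, with 1 dot per library. A375-BIR held all 8 in every library, while 7 of the 8 were at 0 in all A375 libraries in dabrafenib.

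Scaled for depth, the 6 A375-BIR libraries lay above all 6 A375 libraries for 7 of the 8 genes, all but MIR33A. Among all 538 tested rows, 6.32% were separated in that direction. The 8 were selected on this difference, so nothing is read from the count.

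Against 0 counts in A375, A375-BIR was at least 12.9-fold higher for MIR224 and at least 11.1-fold higher for MIR1270. The limit was 3 counts over the 6 A375 libraries. At the level of A375-BIR, the 6 A375 libraries together would have held 38.7 counts of MIR224 and 33.3 of MIR1270. For the other 6 genes the ratio of summed, scaled counts is given with its exact 95% counting interval. MIR130A had the highest ratio and the widest interval, 43.1-fold (7.47 to 1743), because it rests on 1 count in A375.
The ratio was 28.2-fold (11.9 to 87.8) for MIR3929, 20.5-fold (10.6 to 45.3) for MIR1269A and 13.1-fold (5.82 to 31.5) for MIR622. It was 9.06-fold (3.64 to 28.7) for MIR505 and 6.63-fold (2.35 to 25.5) for MIR33A. The intervals of these 6 genes overlap, and differences between their ratios were not tested. Single libraries weighed on these ratios. Without A375 DMSO replicate 1 the ratio was 75.0-fold for MIR3929 and 18.1-fold for MIR505, and MIR33A, with no count left in A375, was at least 7.06-fold higher. Without A375 DMSO replicate 3, MIR130A had no count left in A375 and was at least 11.1-fold higher. Without A375-BIR DMSO replicate 3, the ratio was 19.4-fold for MIR3929 and 10.4-fold for MIR622.

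In dabrafenib alone, the shallower libraries gave lower bounds of 12.2-fold for MIR3929, 8.92-fold for MIR622 and 4.43-fold for MIR505. They were 3.63-fold for MIR224, 2.50-fold for MIR1270 and MIR33A, and 2.42-fold for MIR130A. MIR1269A, with 3 counts in A375, had a ratio of 15.4-fold (5.06 to 76.7). In DMSO alone its ratio was 23.0-fold (10.3 to 63.5). The ratio in DMSO alone was 36.5-fold for MIR130A, 20.8-fold for MIR3929 and 8.91-fold for MIR622. It was 6.33-fold for MIR505 and 4.72-fold for MIR33A, and the lower bounds were 9.20-fold for MIR224 and 8.65-fold for MIR1270. For these 7 genes the value in DMSO alone was below that over both treatments.

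**Figure D2:**
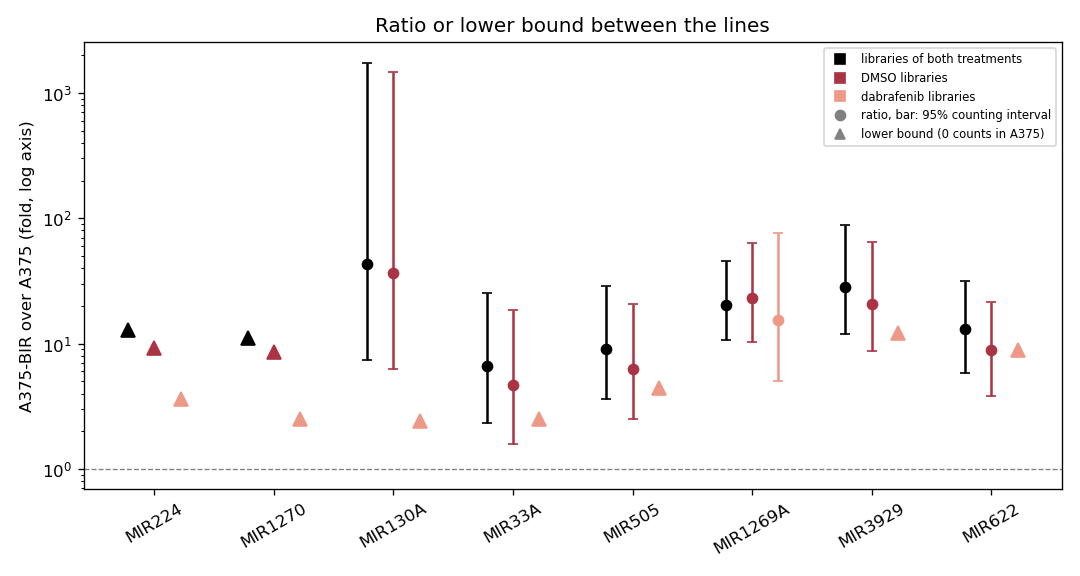
Fold of A375-BIR over A375 (log axis) for each gene, over the libraries of both treatments, of DMSO and of dabrafenib. Dots are ratios with their exact 95% counting interval and triangles are lower bounds where A375 had 0 counts, and both bounds over all libraries lie above 11-fold.

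Summed over the 8 genes, the level was 1374 ± 430 CPM (SD, n = 3) in A375-BIR in DMSO and 1444 ± 469 CPM in dabrafenib, against 95.1 ± 57.2 CPM in A375 in DMSO and 0 to 55.9 CPM in the A375 libraries in dabrafenib. Without A375-BIR DMSO replicate 3 the first of these means was 1130 CPM. The 8 genes made up between 0.0996% and 0.221% of the counts of an A375-BIR library. Without MIR3929 and MIR622, the sum was 886 ± 46.2 CPM in A375-BIR in DMSO and 866 ± 159 CPM in dabrafenib, and its libraries then lay within 833 to 919 and 712 to 1029 CPM. In bulk RNA, fewer cells with a miRNA and less of it per cell cannot be told apart.

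**Figure D3:**
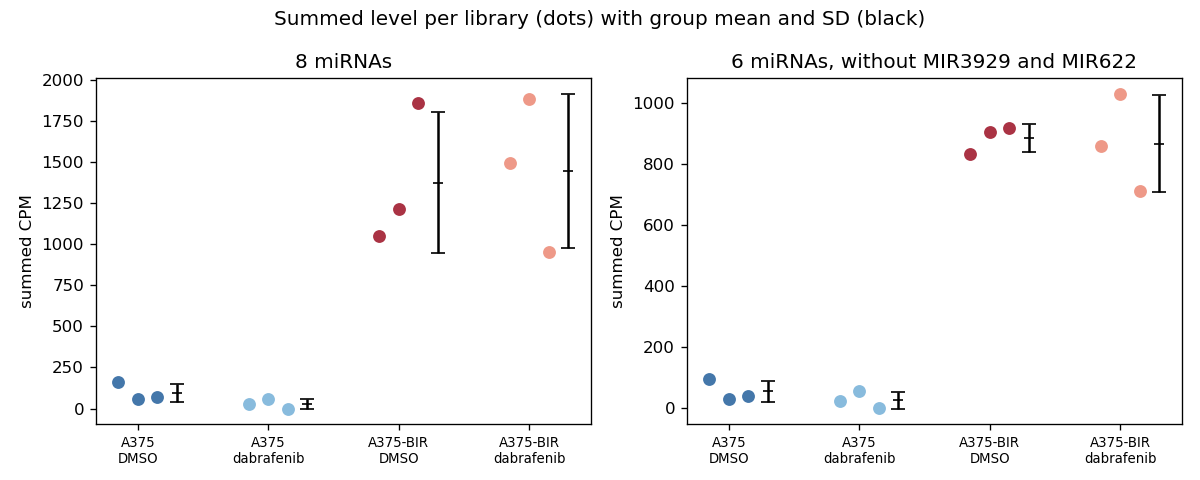
Summed CPM per library (dots) of the 8 genes (left) and of 6 genes without MIR3929 and MIR622 (right), with group mean and SD in black. On the right, the A375-BIR libraries lie between 712 and 1029 CPM in both treatments and the 3 A375 libraries in dabrafenib between 0 and 55.9 CPM.

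Within A375-BIR the mean over 6 libraries was 444 ± 62.7 CPM (SD) for MIR1269A, 307 ± 227 for MIR3929 and 226 ± 175 for MIR622. It was 114 ± 46.6 CPM for MIR505, 94.0 ± 45.1 for MIR130A, 92.7 ± 41.6 for MIR224, 71.7 ± 38.0 for MIR1270 and 59.0 ± 45.5 for MIR33A. Neighbours in this order differed by less than the larger of their SDs. By mean CPM, MIR1269A ranked 97 in A375-BIR and MIR33A ranked 204, the highest and the lowest of the 8, among 1881 rows of which 977 had a count in some library. CPM was not divided by length, since a small RNA read spans a mature arm.

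The response to dabrafenib within A375-BIR was not used to choose the genes and was tested. None of the 8 passed an FDR of 0.05 in edgeR's quasi-likelihood test (0 of 8), against 36 of all 538 tested rows, 6.69%. At an unadjusted p under 0.05 there were 0 of 8, against 98 of 538 rows. DESeq2's Wald test called 0 of the 5 genes it gave an adjusted p, and 0 of 8 had an unadjusted p under 0.05. Of the 36 rows, 29 were higher and 7 lower in dabrafenib, but this split moved with the scaling, to 18 and 67 with DESeq2 size factors and 25 and 28 with TMM on all tested rows. All 8 had at least 1 CPM in at least 3 libraries and were tested, but A375-BIR alone could bring them past that filter.
MIR1269A, the best measured, had 447 ± 69.7 CPM (SD, n = 3) in DMSO and 442 ± 70.3 CPM in dabrafenib. Its log2 fold change was -0.02 with a 95% interval of -0.66 to 0.62 (edgeR FDR 1.0). MIR130A had 114 ± 31.7 CPM in DMSO and 73.7 ± 53.2 CPM in dabrafenib, a log2 fold change of -0.64 (-2.04 to 0.76, edgeR FDR 0.656). The libraries of both treatments overlapped for each of these genes.
MIR622 had the highest value of the 8, 0.51 (-0.41 to 1.43, edgeR FDR 0.568). For the remaining 5, the log2 fold change was 0.28 for MIR224, 0.24 for MIR505, 0.20 for MIR33A, 0.02 for MIR3929 and -0.23 for MIR1270, with edgeR FDRs from 0.905 to 1.0. Their intervals reached from -1.76 at the lowest to 1.82 at the highest, and those of MIR224, MIR1270, MIR33A and MIR505 included 2-fold changes in both directions.
In all, 5 of the 8 values were above 0 and 3 below, with a median of 0.11 beside 0.20 over all tested rows. With DESeq2 size factors that median over all rows moved by -0.42 and the values of MIR224, MIR33A, MIR505, MIR3929 and MIR622 turned below 0. MIR1269A then moved to -0.58 and MIR130A to -1.22 (edgeR FDR 0.270 for both). Exact two-sided permutation tests of 3 against 3 libraries gave p from 0.4 to 1 for the 8, where 0.1 is the smallest p they can give. Without A375-BIR DMSO replicate 3, the value was 1.18 for MIR622 (0.11 to 2.25, edgeR FDR 0.203) and 0.96 for MIR3929 (0.08 to 1.84, edgeR FDR 0.209), and that of MIR1270 turned from -0.23 to 0.29 and that of MIR505 from 0.24 to -0.18. Over all alternatives the edgeR or DESeq2 FDR of the 8 genes lay between 0.203 and 1.

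**Figure D4:**
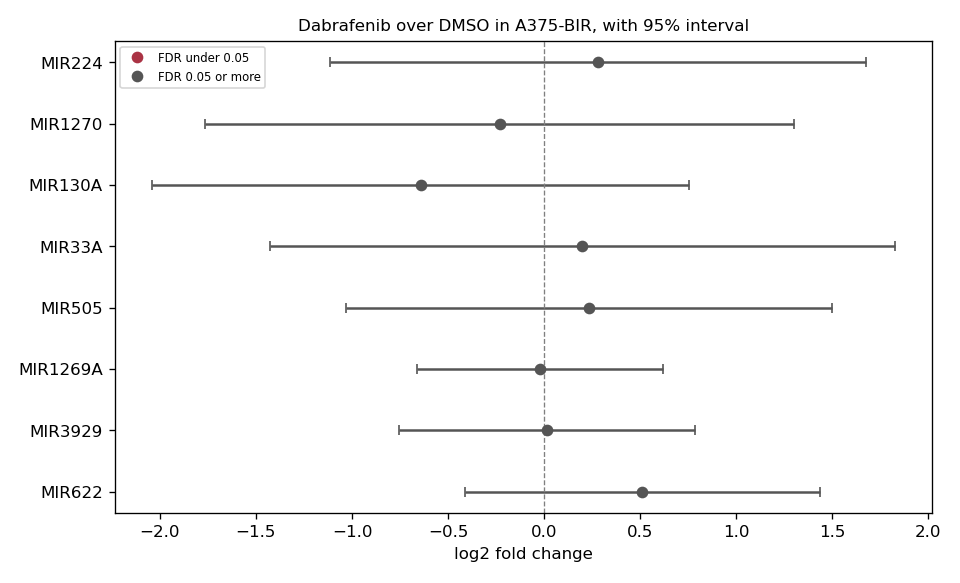
Log2 fold change of dabrafenib over DMSO in A375-BIR (x axis) for the 8 genes, with 95% intervals of edgeR's quasi-likelihood fit. All 8 intervals include 0, and that of MIR1269A, from -0.66 to 0.62, is the narrowest.

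The interaction, which compares the responses of A375 and A375-BIR to dabrafenib, passed the threshold for 7 of 538 rows, 1.30% (edgeR), and for 0 of the 8 genes. It uses the A375 counts on which the 8 were chosen. MIR224 and MIR1270, at 0 in A375, could not have passed, and with at most 3 counts per gene in A375 in dabrafenib the response of A375 itself was not measurable, so nothing is read from this 0.

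Relatives by sequence and neighbours by position were not used to choose the genes and were tested between the lines, over both treatments. Of all 538 tested rows, 130, or 24.2%, passed, of which A375-BIR was higher in 73 and lower in 57 (96 and 46 with total counts).
MIR452 lies 970 bases from MIR224 in the same host gene, GABRE. It had 7, 4 and 3 counts in A375-BIR in DMSO, 2, 1 and 1 in dabrafenib, and 0 in all 6 A375 libraries. Every A375-BIR library thus held MIR452 and no A375 library did, as for MIR224, so it came past the filter on low counts through A375-BIR alone. MIR452 was higher in A375-BIR with an edgeR FDR of 0.00689, and was at least 4.65-fold higher. The bound was 3.79-fold in DMSO alone and 0.908-fold in dabrafenib alone, where 4 counts in A375-BIR are too few to exclude equal levels. The exact permutation test within treatments gave p = 0.005, the smallest that its 400 arrangements allow. Under the 17 alternatives that gave it an FDR, this lay between 0.00448 and 0.0269. MIR452 was not kept by filterByExpr, and DESeq2 gave it no adjusted p. Since MIR224, in the same host gene, was chosen on this difference, the call of MIR452 may not be independent of that choice. In A375-BIR, MIR452 had a log2 fold change of -0.44 with dabrafenib (-2.65 to 1.76, edgeR FDR 0.905).

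Of the 4 seed relatives, MIR33B was the one with enough counts to be tested, and it did not pass. It shares the seed of miR-33a-5p and had 2, 3 and 7 counts in A375-BIR in DMSO and 0, 0 and 1 in dabrafenib, against 0, 3 and 0 and then 0, 0 and 0.5 in A375. Its log2 fold change between the lines was 1.99 (-1.10 to 5.08, edgeR FDR 0.407). With 1 library left out this value lay between 0.80 and 3.28, and it did not pass. MIR620, MIR1269B and MIR4478 had no count in any library and were not tested.
Of the miR-130 family, MIR130B was well measured, with 59.3, 52.5 and 133 counts in A375-BIR in DMSO and 28.3, 33 and 27.3 in dabrafenib. In A375 it had 49.5, 64 and 76 counts in DMSO and 18.7, 25 and 18 in dabrafenib, and the lines overlapped. The log2 fold change between the lines was -0.01 (-0.42 to 0.40, edgeR FDR 1.0), and its sign turned under DESeq2 size factors, total counts, TMM on all tested rows and DESeq2's Wald test. MIR301A and MIR454, with 17 and 14 counts over the 12 libraries, did not pass either (edgeR FDR 0.241 and 0.830), and MIR301B was too low to be tested.

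Farther neighbours, the nearest tested row on each side within 5 Mb, went both ways. MIR504, 1.26 Mb from MIR505, was lower in A375-BIR with a log2 fold change of -2.51 (-3.98 to -1.05, edgeR FDR 0.00491). With 1 library left out this value lay between -3.74 and -2.21, and the call stood. MIR509-1, farther from MIR224 on the same chromosome, was lower as well, at -4.49 (-5.20 to -3.78, edgeR FDR 3.81e-25), and shares its reads with MIR509-2 and MIR509-3. MIR17, 1.12 Mb from MIR622, was higher at 1.01 (0.28 to 1.75, edgeR FDR 0.0321), a call lost under 7 of 19 alternatives. These were DESeq2's Wald test (FDR 0.0703) and leaving out A375-BIR DMSO replicate 2 (edgeR FDR 0.104), A375-BIR dabrafenib replicate 2 (0.266), A375 DMSO replicate 2 (0.0529) or 3 (0.0912), or A375 dabrafenib replicate 1 (0.0724) or 3 (0.102). MIR4488, MIR4534, MIR1249 and MIR320D2 did not pass, and MIR1270, MIR1269A and MIR3929 had no tested neighbour in that range.

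**Figure D5:**
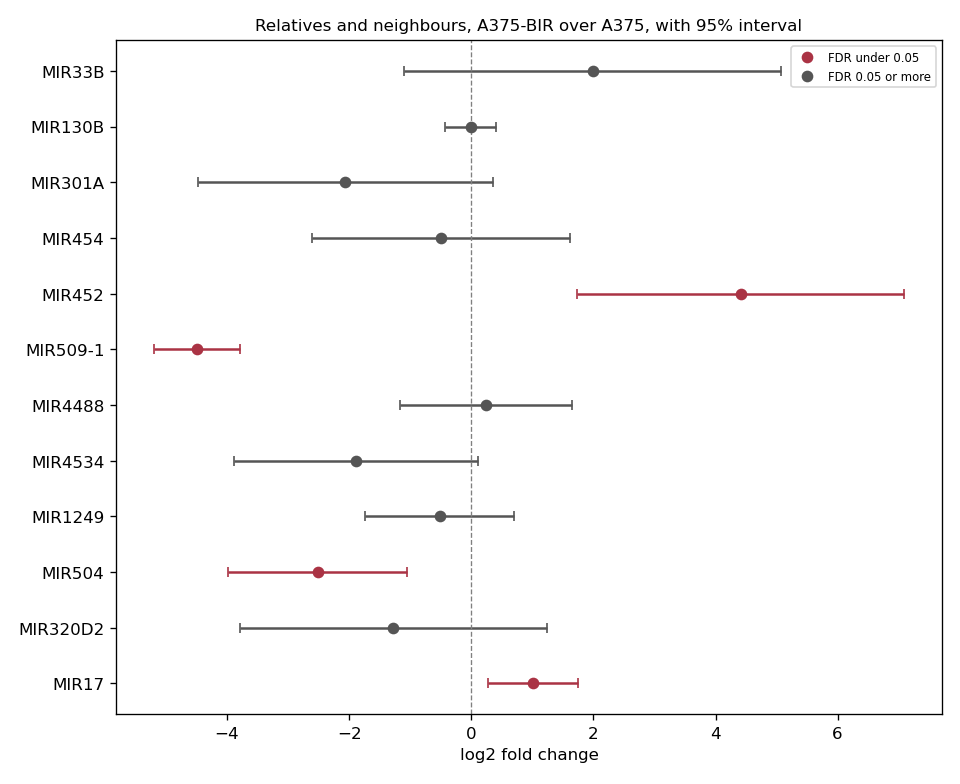
Log2 fold change of A375-BIR over A375 over both treatments (x axis) for seed relatives and neighbours, with 95% intervals of edgeR's quasi-likelihood fit, red where the FDR is under 0.05. MIR452 and MIR17 are higher and MIR509-1 and MIR504 lower in A375-BIR.

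The low counts in A375 were not limited to these 8 genes. With at most 5 counts over the 6 A375 libraries and at least 20 over the 6 A375-BIR libraries, 11 rows were found, 6 of them among the 8 genes. MIR1269A, with 9 counts in A375, and MIR622, with 6.6, lay just outside these limits, and MIR505 and MIR3929, with 5 each, just inside. The 5 other rows were MIR935 (1 count in A375 and 42 in A375-BIR), MIR107 (5 and 41.25), MIR139 (2 and 23), MIR6515 (5 and 21.6) and MIR126 (5 and 20). The reverse pattern was found for 3 rows, MIR508, MIR373 and MIR3127.

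The rows most like the summed CPM of the 8 genes over the 12 libraries were MIR125B2 (Pearson r 0.98 on the log2 scale), MIR182 (0.97), MIR222 (0.96), MIR125B1 (0.96) and MIR31 (0.95). These values are a description, since the 12 libraries fall into 2 lines and the lines chose the genes. All 5 had far more counts in A375 than the 8 genes, from 118.5 for MIR125B2 to 1696 for MIR222. MIR31 was the one of them that passed the threshold for dabrafenib in A375-BIR, with a log2 fold change of -1.34 (-1.74 to -0.93, edgeR FDR 3.72e-08). MIR222 was at -0.47 (-0.84 to -0.10, edgeR FDR 0.122), and for both genes all 3 libraries in dabrafenib lay below those in DMSO.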

How the data were processed

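RNA from A375 and A375-BIR cells was sequenced as small RNA by the authors, who trimmed and filtered the reads and deposited an expected count per miRNA gene and library, from RSEM 1.2.25 on hg38 per the labels, without normalization. Of 1881 Ensembl identifiers, 1879 matched GENCODE v44. Expected counts were rounded and rows with at least 1 CPM in at least 3 libraries tested (538 rows, since filterByExpr, with 175 rows, keeps 3 of the 8 genes). TMM factors came from the filterByExpr rows. Groups were fitted together in R 4.3.3 with edgeR 4.0.16 (quasi-likelihood test, Benjamini-Hochberg adjustment, threshold 0.05). Intervals use the standard error from the fold change and its F statistic. The fit was tested on simulated data. DESeq2 1.42.0, other scalings and filters, a replicate block and leaving out each library were alternatives.
The 8 genes and all lists were chosen with earlier results of these data known. Named besides them were seed relatives, miRNAs in the same host gene or within 10 kb, the nearest tested row on each side within 5 Mb, the 5 rows most like the summed CPM, and rows with at most 5 counts in one line and at least 20 in the other. Runs of 18 bases were compared with hg38 and with GENCODE transcripts.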

Additional observations from a re-analysis of the deposited data

How the results depend on the processing

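For the 8 genes, no alternative brought the dabrafenib response in A375-BIR past the threshold. Their log2 fold changes, from -0.64 to 0.51 in the report, moved with the scaling and several changed sign. With DESeq2 size factors they were -0.27 for MIR224, -0.31 for MIR33A, -0.30 for MIR505, -0.51 for MIR3929 and -0.0899 for MIR622, and with DESeq2's Wald test -0.32 for MIR505, -0.53 for MIR3929 and -0.0770 for MIR622. In the same order of these 2 alternatives MIR130A was at -1.22 and -1.24 and MIR1269A at -0.58 and -0.59, and MIR1270 was at -0.75 with DESeq2 size factors. MIR3929 was at -0.0446 with total counts, -0.15 with TMM on all tested rows and -0.0291 as the ratio of mean CPM beside the exact permutation test. MIR1269A was at -0.25 with TMM on all tested rows and 0.0495 in a fit of the A375-BIR libraries alone. Leaving out 1 library at a time gave ranges of -0.0847 to 0.80 for MIR224, -0.71 to 0.29 for MIR1270, -1.19 to 0.61 for MIR33A, -0.18 to 0.57 for MIR505, -0.17 to 0.17 for MIR1269A, -0.78 to 0.96 for MIR3929 and -0.0887 to 1.18 for MIR622. MIR130A kept its sign throughout. filterByExpr left 5 of the 8 genes untested, so these have no value there. DESeq2's Wald test gave 3 of the 8 genes no adjusted p, so these have no FDR from it. The cause of the changes of sign was not tested.

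Between the lines, MIR509-1 kept its call. MIR504, which filterByExpr did not keep, and MIR452 did so wherever they had an FDR, also with no filter on low counts. With 0 counts in A375, MIR452 came past the filter through A375-BIR alone. MIR130B was at 0.0819 with DESeq2 size factors, 0.24 with total counts, 0.12 with TMM on all tested rows and 0.0811 with DESeq2's Wald test, and between -0.23 and 0.11 with a library left out. MIR17 was at 1.11 with DESeq2's Wald test, past the threshold no longer, and between 0.70 and 1.41 with a library left out. The same ranges were -1.71 to 1.42 for MIR454, -0.0468 to 0.43 for MIR4488 and -1.60 to 0.15 for MIR320D2.

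The lower bound of MIR224 was 9.20 in DMSO alone, 3.63 in dabrafenib alone and 38.7 with 1 count as the limit, and that of MIR1270 was 2.50 in dabrafenib alone and 33.3 with 1 count. MIR130A had a bound of 2.42 in dabrafenib alone. With a library left out, the bounds lay between 8.80 and 15.6 for MIR224 and between 7.57 and 12.2 for MIR1270, and both were lowest without A375 DMSO replicate 2, the deepest A375 library. Fewer A375 libraries hold less depth, which lowers a bound by construction.

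Dabrafenib in A375-BIR called 85 of all tested rows with DESeq2 size factors and 77 with DESeq2's Wald test, against 36. The interaction called 4 with DESeq2 size factors and 3 with total counts, against 7, and 4 to 8 with a library left out. With a replicate block the counts were 29 for dabrafenib in A375-BIR, 119 between the lines and 6 for the interaction. Deviations of same-numbered A375-BIR libraries correlated at -0.32, 0.01 and -0.54 between treatments, and those of same-numbered DMSO libraries at 0.11, 0.22 and 0.30 between the lines. The numbers were not taken as pairs, and the block changed no call of the 8 genes or of MIR452, MIR504, MIR509-1 and MIR17.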
